A study of Mus musculus with 15 samples.

Results

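The genes of the electron transport chain and ATP synthase were examined in the mouse spleen after partial removal of the liver. They were chosen by symbol, as names that start with Ndufa, Ndufb, Ndufc, Ndufs, Ndufv, Uqcr or Atp5, with Cox and the numbers 4 to 8, or that read Sdha, Sdhb, Sdhc, Sdhd, Cyc1 or Cycs. This rule was written with earlier results of these data known, so the choice was not independent of them. Of 22206 features tested on each array, 19572 carried 1 gene symbol, and 95 of those matched, with 1 feature for each gene. The 95 genes comprised 38 of complex I, 8 assembly factors of complex I, 4 of complex II, 9 of complex III, the cytochrome c gene Cycs, 18 of complex IV and 17 of complex V. Subunits encoded by mitochondrial DNA were not analysed here.

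Complexes I to IV sit in the inner mitochondrial membrane and pass electrons from NADH and succinate through ubiquinone and cytochrome c to oxygen, and complexes I, III and IV pump protons as they do so. Complex V, the ATP synthase, uses the returning protons to make ATP. Complex II is also an enzyme of the TCA cycle, and cytochrome c also takes part in apoptosis once it leaves the mitochondrion. In the spleen, dividing lymphocytes and erythroid precursors rely on these complexes, while mature red cells lack mitochondria.

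Nuclear respiratory factor 1 (NRF1) is a transcription factor known for binding promoters of respiratory chain genes, so its consensus letters were searched for before the levels are described. RefSeq promoter windows (build GRCm38.p6), which run from 250 bases before the transcription start site to 50 bases after it, were found for 78 of the 95 genes. Its letters, GCGCA and GCGC with any 1 base between them, read on both strands, occurred in windows of 19 of the 78 genes (24.4%), and in 5.19% of all 27025 genes with a window. Shown here are 100 bases of genes that recur in the results, with these letters in capitals. All but Cox6a1 end at the last base before the start site. Sdha and Sdhd encode the flavoprotein and a membrane anchor of complex II, Ndufs6 a complex I subunit, Cox6a1 a complex IV subunit and Atp5k subunit e of complex V. The stretches of Cycs and Ndufc2, which had large differences, are shown beside them and do not hold these letters, and such a match or its absence says nothing about binding.
Sdha, chr13:74350241-74350340, minus strand: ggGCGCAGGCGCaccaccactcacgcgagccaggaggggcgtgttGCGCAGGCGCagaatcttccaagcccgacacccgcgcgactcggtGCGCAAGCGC
Sdhd, chr9:50603850-50603949, minus strand: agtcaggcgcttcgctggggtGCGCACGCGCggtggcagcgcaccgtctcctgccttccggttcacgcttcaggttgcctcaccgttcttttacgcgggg
Ndufs6, chr13:73328483-73328582, minus strand: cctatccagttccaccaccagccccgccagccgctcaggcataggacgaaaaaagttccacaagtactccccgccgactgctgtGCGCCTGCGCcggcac
Cox6a1, chr5:115349051-115349150, minus strand: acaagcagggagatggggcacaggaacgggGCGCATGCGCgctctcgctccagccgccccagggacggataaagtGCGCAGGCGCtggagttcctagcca
Atp5k, chr5:108434400-108434499, minus strand: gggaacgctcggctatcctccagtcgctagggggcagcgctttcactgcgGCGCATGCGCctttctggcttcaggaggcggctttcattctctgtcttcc
Cycs, chr6:50566570-50566669, minus strand: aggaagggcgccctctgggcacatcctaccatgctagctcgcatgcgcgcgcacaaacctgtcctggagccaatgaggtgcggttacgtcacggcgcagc
Ndufc2, chr7:97399903-97400002, plus strand: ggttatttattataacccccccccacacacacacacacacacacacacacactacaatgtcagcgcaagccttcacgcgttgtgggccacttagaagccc

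In the same windows, AAGATGGC, the core letters of the factor YY1 (both strands), occurred in 14.1% of the 78 genes and 3.19% of all genes. CCGGAAG, letters read by ETS family factors such as GABP (both strands), occurred in 24.4% and 9.93%. The 19 genes with the NRF1 letters had a median log2 difference of 0.67 on day 3 and 0.46 on day 7, and the 59 genes without them 0.58 and 0.48. These medians are descriptions with no test, and they lie close together on both days. Differences from intact spleen are given as resected minus intact, by the sample labels. For most of these genes that sign is opposite to the direction the study lists for the electron transport chain on the later days, and the cause was not tested.

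Spleen RNA had been measured on 15 Clariom S arrays, 1 per spleen, from male C57bl/10 mice whose age was not given in the sources used here. The groups were 6 intact spleens and 3 spleens each on days 1, 3 and 7 after 70% of the liver was resected under isoflurane anaesthesia, and operated mice were killed with CO2. No sham-operated mouse was measured on these arrays, so anaesthesia and surgery cannot be told apart from the loss of liver. By the labels, arrays within a group are biological replicates, so p values measure the spread between these animals' spleens only. Days 1 and 7 were compared with intact spleens 1 to 3 and day 3 with intact spleens 4 to 6. This pairing was set by the rule for these genes, and the labels name no matched controls. These sets of intact spleens differed in 131 features (0.59% of those tested, limma, adjusted p under 0.05), and the labels give no reason for a difference between them. Days 1 and 7 share their controls, and the day 3 comparison shares intact spleens 4 to 6 with the comparison of the sets, so these differences are not independent.

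Values are log2 expression levels as deposited, with array medians from 4.74 to 4.89. The mean levels of the erythroid, B cell, T cell and red pulp macrophage marker lists lay above these medians on every array. Intact spleens 1 and 2 stood apart, with a mean level of 11 pancreatic acinar genes of 15.66 and 13.41, against 3.58 to 8.89 on the other 13 arrays. In whole spleen, fewer cells of a type and less RNA per cell cannot be told apart. Mean levels of 7 or more were seen for 68 of the 95 genes. Cox7c, a small subunit of complex IV, averaged 17.16 over the arrays and the complex V genes Atp5h and Atp5b 16.19 and 16.12, while Ndufa4l2, Cox8b and Cox4i2, at 3.00, 3.21 and 3.51, lay below every array median. Ranges over the 15 arrays were widest for Ndufb9 (3.52), Atp5g1 (3.19) and Cox6b2 (2.98). Ndufb4 and Ndufb4b are near-identical copies, and many of these genes have processed pseudogenes, so probes may be shared and the value of such a gene is uncertain.

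On day 3, 90 of the 95 genes were higher than in intact spleens 4 to 6, as were 49.5% of all features, with a median log2 difference of 0.59. The median over all features was -0.004, and it was 0.15 over features with a mean level of at least 7. No gene passed an adjusted p under 0.05 (0 of 95, against 0.00901% of all features, limma). At an unadjusted p under 0.05, 43 genes were higher and 0 lower, where 5.76% and 3.28% of all features were, and 12.9% and 2.17% of features at a level of at least 7. All 3 day 3 arrays lay above all 3 intact arrays for 44 genes and below them for 0, against 6.78% and 5.38% of all features.

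Day 7 gave 79 genes higher and 16 lower than in intact spleens 1 to 3, where 49.8% of all features were higher, with a median difference of 0.45, against -0.001 over all features and 0.06 over those at a level of at least 7. Again 0 of the 95 genes passed the adjusted test (limma), as did 0% of all features. The unadjusted p was under 0.05 for 31 genes, all higher, against 5.91% of all features higher and 4.45% lower, or 9.39% and 5.93% of those at a level of at least 7. Arrays did not overlap for 40 genes above and 1 below the intact spleens (7.93% and 8.31% of all features).

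On day 1 neither direction prevailed against intact spleens 1 to 3. Of the 95 genes 42 were higher and 53 lower than in intact spleens 1 to 3, where 50.4% of all features were higher, with a median of -0.03 against 0.002 over all features. None passed the adjusted test (limma, 0 of 95, against 0% of all features, smallest adjusted p = 0.677), with 1 higher and 2 lower at an unadjusted p under 0.05, where 4.48% and 2.63% of all features were, and 8.32% and 2.32% of those at a level of at least 7. Arrays did not overlap for 10 genes above and 8 below (7.89% and 7.14% of all features). This depended on the intact spleens. Against intact spleens 4 to 6 the median was 0.11, with 19 genes higher or lower at an unadjusted p under 0.05 and 4 past the adjusted test. Against all 6 it was 0.06, with 10 and 0. Shares of all features were not computed for these settings, and the difference between the sets of intact spleens enters them.

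Averaged over the 95 genes, the log2 level was 9.33, 9.37 and 9.41 on the day 7 arrays and 8.91, 9.03 and 8.82 in intact spleens 1 to 3. Day 3 arrays were at 9.19, 9.40 and 9.34, and intact spleens 4 to 6 at 8.87, 8.64 and 8.59. The day 1 arrays, at 8.87, 8.70 and 9.13, spread across the levels of intact spleens 1 to 3, while days 3 and 7 lay wholly above their own controls. The mean over all features stayed between 5.80 and 5.87 on every array.

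**Figure D1:**
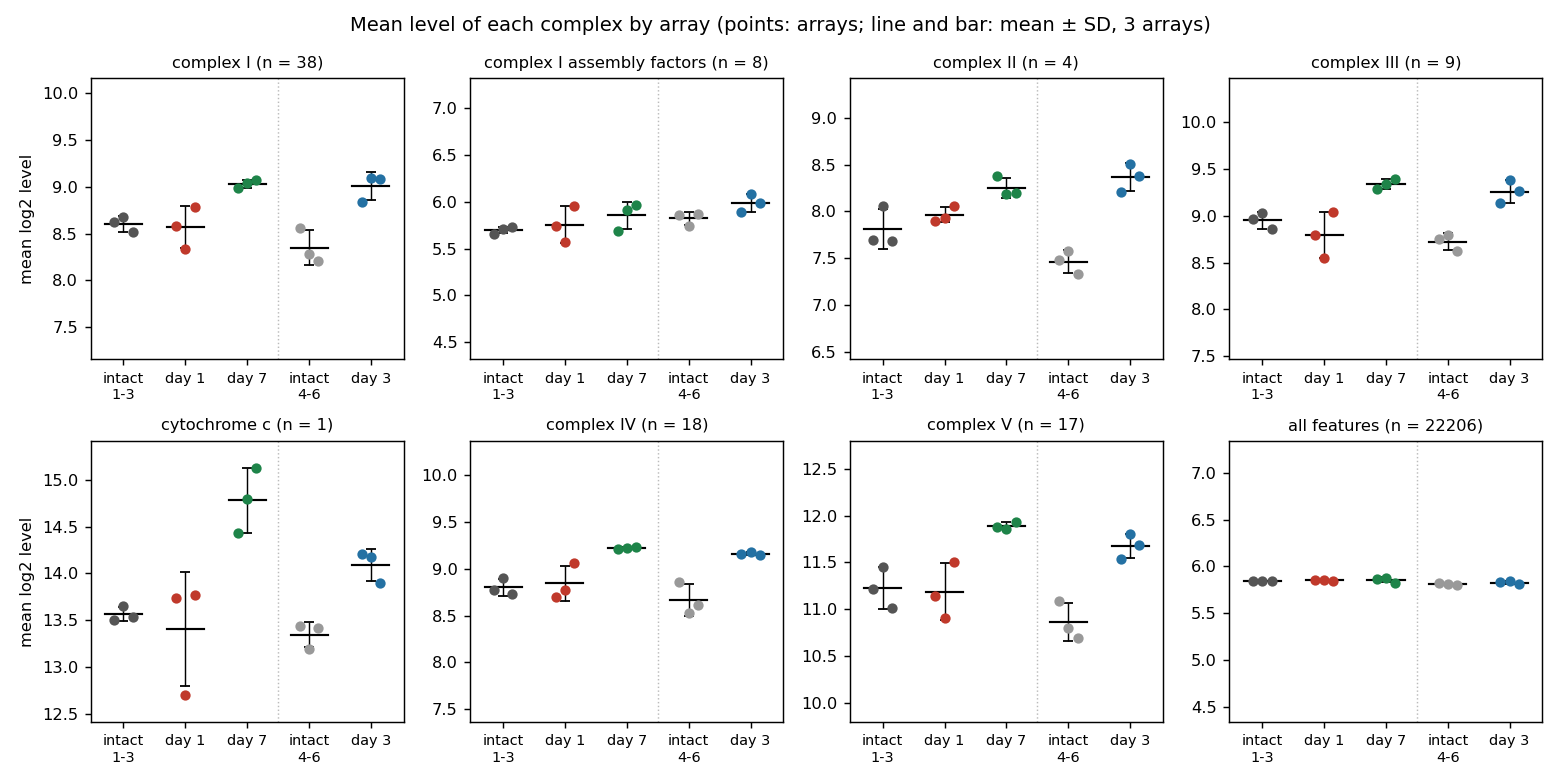
Mean log2 level of each complex on each of the 15 arrays, with points for arrays and lines and bars for the mean and SD of 3 arrays; each panel spans 3 log2 units and the last panel shows all 22206 features. Complex V lay at 11.86 to 11.93 on day 7 against 11.01 to 11.46 in intact spleens 1 to 3, while the assembly factors of complex I overlapped between day 7 and these controls.

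**Figure D2:**
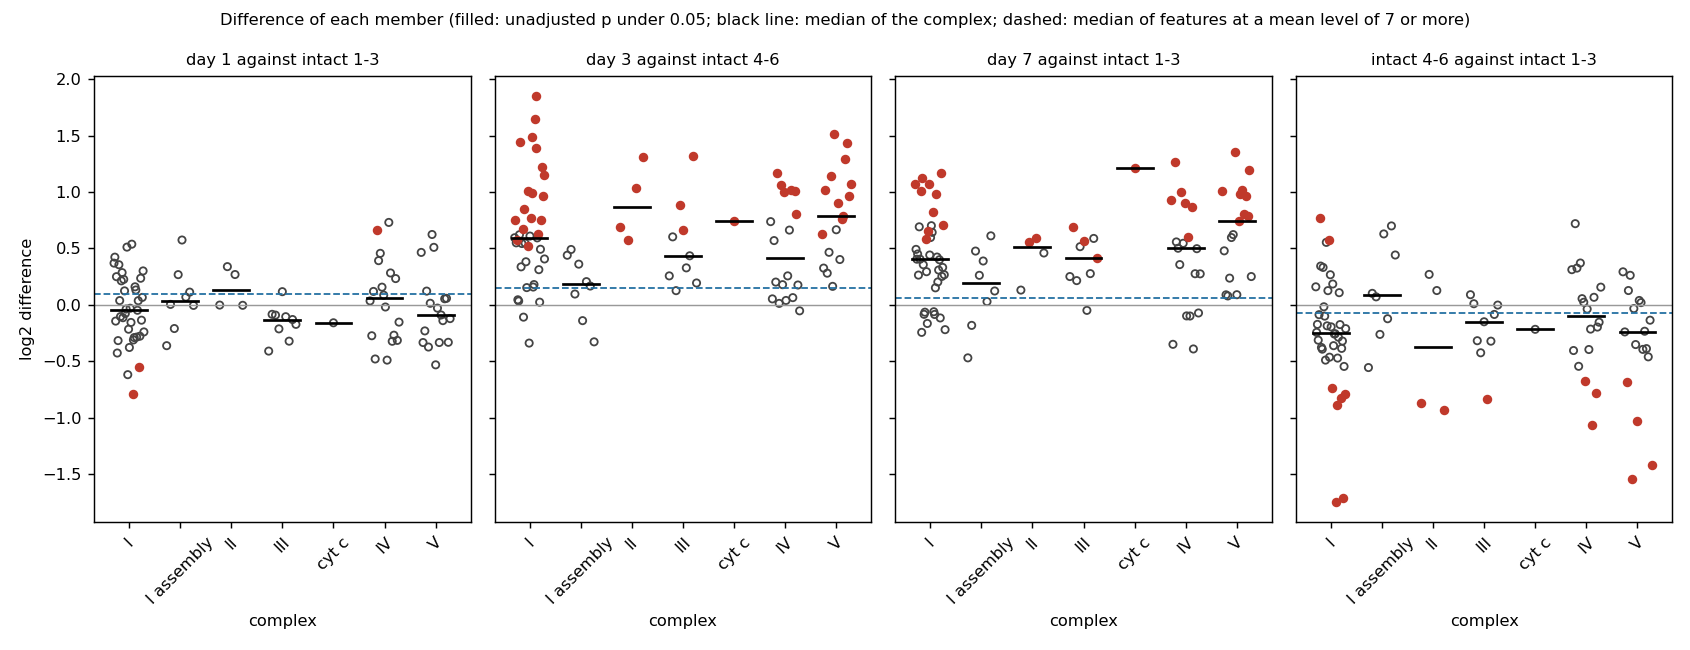
Log2 difference of each of the 95 genes in 4 comparisons, by complex; filled points have an unadjusted p under 0.05, black lines are medians of a complex and dashed lines are medians of features at a level of at least 7. On day 3 all 43 filled points lie above 0, and none belongs to the assembly factors of complex I.

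Complex I oxidises NADH, and its core subunits carry the flavin and the iron-sulfur clusters. On day 3, 18 of its 38 genes were higher and 0 lower at an unadjusted p under 0.05, with a median difference of 0.59, and on day 7 10 were, with a median of 0.41. Among the 6 core subunits analysed here 5 were higher at this threshold on day 3 (median 0.86) and 1 on day 7 (median 0.29). Over the 31 accessory subunits, which surround the core, 13 were higher on day 3 (median 0.55) and 9 on day 7 (median 0.44). On day 1 the whole complex had a median of -0.04, with 0 higher and 2 lower.

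Ndufc2, an accessory subunit of the membrane arm, had the largest difference of the 95 genes on day 3. Its log2 level was 12.24, 13.11 and 12.93 on the day 3 arrays and 10.77, 11.24 and 10.72 in intact spleens 4 to 6, with no overlap. The difference of 1.85 ± 0.29 (SE, n = 3 against 3), a 3.61-fold higher level, had an adjusted p of 0.0858 from limma. Intact spleens 1 to 3 were at 11.04, 11.57 and 11.53, all below day 3 as well, and against them Ndufc2 passed the test on day 3 (difference 1.38, adjusted p = 0.0368). Levels on day 1 (11.56, 11.22 and 11.76) and day 7 (11.37, 12.17 and 11.88) overlapped with intact spleens 1 to 3.

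Ndufb9, another accessory subunit, was at 11.60, 12.07 and 13.44 on day 3 and at 11.59, 9.92 and 10.66 in intact spleens 4 to 6. The lowest day 3 array lay just above the highest intact array, and the difference was 1.65 ± 0.48 (SE, adjusted p = 0.28 from limma). In intact spleens 1 to 3 Ndufb9 was at 12.02, 12.98 and 12.41, above the other intact spleens and among the day 3 values. The lowest of its 15 values was that of intact spleen 5 and the highest that of day 3 replicate 3.

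Among core subunits, Ndufs8, which holds iron-sulfur clusters on the path to ubiquinone, was the 1 gene of the 95 past the test in any of these comparisons. It fell by 1.71 ± 0.23 on the log2 scale in intact spleens 4 to 6 against intact spleens 1 to 3 (SE, adjusted p = 0.00286, limma), at 6.84, 7.01 and 6.55 against 8.63, 8.39 and 8.52. On day 3 its level was 7.81, 8.59 and 7.68, higher than in intact spleens 4 to 6 by 1.23 ± 0.23 (SE, adjusted p = 0.109), with arrays 1 and 3 below every intact spleen of the first set. Day 1 (8.36, 8.32 and 8.46) and day 7 (8.77, 8.84 and 8.93) lay close to intact spleens 1 to 3, with differences of -0.14 and 0.33. The low controls of the day 3 difference of Ndufs8 are the same arrays that were low against intact spleens 1 to 3, and without intact spleens 1 and 2 the latter was -1.72 with an adjusted p of 0.198, from a fit in which intact spleen 3 alone stands for its set and is assumed to vary like the other groups.

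Ndufv1, the flavoprotein that takes electrons from NADH, was at 11.11, 11.16 and 12.07 on day 3 against 10.69, 10.74 and 10.01, without overlap (difference 0.97 ± 0.32, SE, adjusted p = 0.355). On day 7 it was at 11.98, 11.60 and 11.63 against 11.55, 10.90 and 10.63, also without overlap (0.71 ± 0.32, adjusted p = 0.465). Ndufs1, the largest iron-sulfur subunit, differed by 0.59 ± 0.34 on day 3 and 0.20 ± 0.34 on day 7, and its arrays overlapped on both days. Ndufv2, Ndufs7 and Ndufs3, named after their values were seen to complete the 6 core subunits analysed here, differed by 1.15, 0.76 and 0.63 on day 3 with no overlap.

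Day 7 had other leading genes within complex I. Ndufs6, an accessory subunit that carries zinc, was at 11.19, 10.50 and 10.47 on day 7 and 9.88, 9.64 and 9.15 in intact spleens 1 to 3, with no overlap. Its difference was 1.17 ± 0.33 (SE, adjusted p = 0.257, limma), and it passed the test against all 6 intact spleens (1.36, adjusted p = 0.0458). The latter value includes part of the difference of Ndufs6 between intact spleens 4 to 6 and 1 to 3, which was -0.39. Ndufa5, an accessory subunit of the peripheral arm, was at 9.22, 9.03 and 8.81 against 7.998, 7.82 and 7.88, likewise without overlap (1.12 ± 0.30, adjusted p = 0.242). On day 3 the arrays of Ndufs6 overlapped with intact spleens 4 to 6, while those of Ndufa5 lay just above them, with differences of 0.49 and 0.54.

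The day 1 genes at an unadjusted p under 0.05 in complex I were lower. Ndufb7, an accessory subunit, was at 5.98, 6.91 and 6.92 on day 1 and 7.82, 7.38 and 6.99 in intact spleens 1 to 3 (difference -0.79 ± 0.36, SE, adjusted p = 0.691, limma). Ndufs5, also accessory, was at 8.25, 7.91 and 8.73 against 8.81, 8.98 and 8.75 (-0.55 ± 0.24, adjusted p = 0.681). In both, the highest day 1 array lay just below the lowest intact array. Ndufa4, grouped here by its name, is now known as a subunit of complex IV; it differed by 1.44 on day 3 and 1.01 on day 7 and was chosen for mention after its values were seen.

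Assembly factors of complex I, which help build it but are not part of it, had smaller differences by median, in a comparison with no test. Of the 8 Ndufaf genes 0 were higher or lower at an unadjusted p under 0.05 on day 3 or day 7, and the medians were 0.19 on each of these days. Single differences ran from -0.33 for Ndufaf8 to 0.49 for Ndufaf2 on day 3 and from -0.47 for Ndufaf1 to 0.61 for Ndufaf7 on day 7. Ndufaf5 had the largest on day 1, at 0.58, and Ndufaf3 differed by 0.48 on day 7. All but Ndufaf4 (9.69, named after its values were seen) had mean levels under 7, where low signal limits a difference.

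Complex II passes electrons from succinate to ubiquinone, with Sdha and Sdhb as catalytic subunits and Sdhc and Sdhd as membrane anchors. All 4 genes were higher on day 3 at an unadjusted p under 0.05, with a median of 0.87, and 2 were on day 7 (median 0.51). Sdhd was at 8.83, 8.93 and 8.97 on day 3 against 7.37, 7.66 and 7.78 in intact spleens 4 to 6, and the groups lay far apart (1.31 ± 0.27, SE, adjusted p = 0.112, limma). In intact spleens 1 to 3 Sdhd was at 8.09, 8.95 and 8.56, so that these spleens reached the day 3 levels. Sdhc was at 7.44, 7.12 and 7.08 on day 3 and 6.11, 6.31 and 6.09 in intact spleens 4 to 6 (1.04 ± 0.24, adjusted p = 0.144). Every day 3 array of Sdhc also exceeded intact spleens 1 to 3 (5.95, 6.34 and 5.84), and against them it passed the test (1.17, adjusted p = 0.0313).

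The catalytic subunits of complex II had smaller differences than the anchors on day 3, though not on every day, and this was not tested. Sdhb was at 10.63, 10.93 and 10.48 on day 3 against 10.36, 10.21 and 9.74, a difference of 0.58 ± 0.21 (SE, adjusted p = 0.402, limma). On day 7 Sdhb was at 10.40, 10.41 and 10.36 and in intact spleens 1 to 3 at 9.87, 9.82 and 9.81, so that both groups were tight and apart (0.56 ± 0.21, adjusted p = 0.369). Sdhb on day 1 was also above these intact spleens on all 3 arrays, by 0.34 ± 0.21. Sdha was at 5.96, 7.04 and 7.00 on day 3 and 6.08, 6.14 and 5.70 in intact spleens 4 to 6, with overlap (0.69 ± 0.32, adjusted p = 0.55), and differed by 0.13 on day 7.

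Complex III moves electrons from ubiquinol to cytochrome c through Cyc1, the cytochrome c1 gene, and Uqcrfs1, the Rieske iron-sulfur protein. On day 3, 3 of its 9 genes were higher at an unadjusted p under 0.05 (median 0.44) and on day 7 also 3 (median 0.41). Those catalytic subunits were not among them on either day: Cyc1 differed by 0.26 and 0.25 and Uqcrfs1 by 0.44 and 0.28 on days 3 and 7. Uqcrh, the hinge protein, led on day 3, at 13.93, 14.88 and 14.76 against 13.29, 13.01 and 13.30 in intact spleens 4 to 6, without overlap (1.32 ± 0.35, SE, adjusted p = 0.214, limma). Uqcrc1, a core protein, was higher by 0.67 ± 0.25 on day 3 and 0.57 ± 0.25 on day 7 (adjusted p = 0.41 and 0.437), without overlap on either day. On day 7 the small subunits Uqcrq and Uqcr10 differed by 0.41 and 0.69 (adjusted p = 0.425 and 0.464). Uqcrc2, another core protein, and Uqcr11 differed by -0.05 and 0.22 on day 7.

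Cycs encodes cytochrome c, the carrier between complexes III and IV. Its log2 level was 14.43, 14.79 and 15.12 on day 7 and 13.51, 13.65 and 13.53 in intact spleens 1 to 3, and every day 7 array lay above every other array of the series. The day 7 difference was 1.22 ± 0.28 (SE, n = 3 against 3, adjusted p = 0.202, limma), a 2.33-fold higher level, and it passed the test against all 6 intact spleens (1.33, adjusted p = 0.035). The latter value includes part of the difference of Cycs between intact spleens 4 to 6 and 1 to 3, which was -0.22. On day 3 Cycs was at 14.21, 14.18 and 13.90 against 13.44, 13.19 and 13.41, without overlap (0.75 ± 0.28, adjusted p = 0.41). Day 1 was at 13.74, 12.70 and 13.77, on both sides of the intact spleens, with 1 low array (-0.16 ± 0.28, adjusted p = 0.937).

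**Figure D3:**
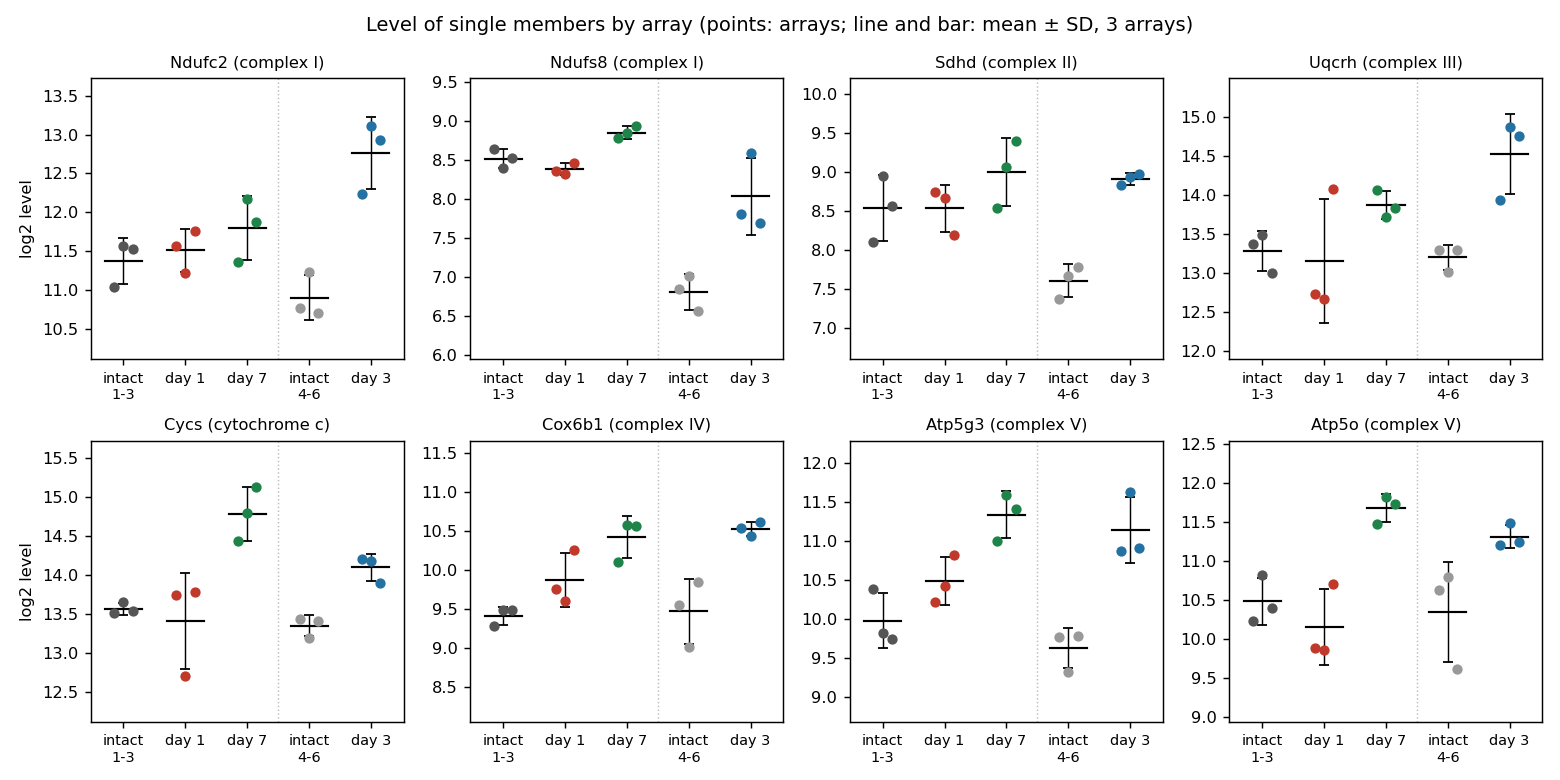
Log2 level of 8 genes on each of the 15 arrays, each panel spanning 3.6 log2 units, with the mean and SD of 3 arrays as line and bar. The mean of Ndufc2 is highest on day 3, those of Cycs and Atp5o on day 7, and Ndufs8 is lowest in intact spleens 4 to 6, at 6.55 to 7.01.

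Complex IV reduces oxygen, and its nuclear subunits comprise 11 widely expressed genes and 7 isoforms known mainly from heart and skeletal muscle, lung or testis. All complex IV genes at an unadjusted p under 0.05 on day 3 (6, median of the 11 genes 0.81) and day 7 (6, median 0.60) were widely expressed ones. Of the 7 tissue-limited isoforms Cox4i2, Cox6a2, Cox6b2, Cox7a1, Cox7b2, Cox8b and Cox8c, 0 were at this threshold on days 1, 3 or 7, with medians of -0.15, 0.05 and -0.07. Their differences on day 3 ran from -0.05 for Cox8c to 0.18 for Cox6b2, and their mean levels over the arrays ran from 3.21 for Cox8b to 5.46 for Cox6b2. Ndufa4l2, an isoform counted with complex I by its name, differed by 0.34 on day 3. Low signal limits what the difference of such a gene can show.

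Cox6b1, a subunit that holds the complex IV dimer together, stood above both sets of intact spleens on days 3 and 7. It was at 10.54, 10.44 and 10.62 on day 3 and 9.55, 9.02 and 9.84 in intact spleens 4 to 6 (1.06 ± 0.25, SE, adjusted p = 0.153, limma). On day 7 it was at 10.11, 10.59 and 10.57 against 9.28, 9.48 and 9.48 in intact spleens 1 to 3 (1.01 ± 0.25, adjusted p = 0.239). The groups did not overlap on either day, and on day 7 Cox6b1 passed the test against all 6 intact spleens (0.98, adjusted p = 0.0458).

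Cox6a1, the widely expressed partner of Cox6a2, was at 12.43 on each of the 3 day 3 arrays (12.434, 12.425 and 12.431) and 11.51, 11.29 and 10.98 in intact spleens 4 to 6 (1.17 ± 0.28, adjusted p = 0.156). It was the 1 gene higher on day 1 at an unadjusted p under 0.05, at 12.60, 11.98 and 12.81 against 11.35, 11.77 and 12.29, with overlap (0.66 ± 0.28, adjusted p = 0.677). Against intact spleens 4 to 6 the day 1 difference of Cox6a1 passed the test (1.205, adjusted p = 0.0447, limma). That value includes the difference of Cox6a1 between intact spleens 4 to 6 and 1 to 3, which was -0.545. Cox5a, a subunit on the matrix side, was at 11.02, 11.11 and 11.17 on day 7 against 10.61, 9.64 and 9.24, without overlap (1.27 ± 0.41, adjusted p = 0.32). Intact spleens 4 to 6, at 11.15, 10.22 and 10.28, overlapped with the day 7 levels of Cox5a. Cox6c was higher by 1.00 on day 3 and 0.90 on day 7, and Cox7b by 1.02 and 0.87, with no overlap for either gene on either day.

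Other complex IV genes followed no single course. Cox4i1, the regulatory subunit of most tissues, was at 11.73, 12.09 and 11.96 on day 7 against 11.33, 11.37 and 10.30 (0.93 ± 0.37, adjusted p = 0.399), and differed by 0.74 ± 0.37 on day 3, without overlap on either day. Cox5b, a zinc-binding subunit, differed by 0.56 on day 7 and 0.20 on day 3. Cox7c was at 17.40 on 4 arrays of days 3 and 7, with a difference of 1.01 on day 3 and 0.28 on day 7. Cox7a2l, known for linking complexes III and IV into supercomplexes, differed by 0.73 on day 1, 0.66 on day 3 and -0.10 on day 7. Its day 1 arrays lay above intact spleens 1 to 3, and its day 7 arrays overlapped with them.

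Complex V makes ATP, and its measured genes were 5 of the catalytic F1 part, 3 that encode the c subunit of the rotating ring and 9 of the peripheral stalk and membrane part. All 17 were higher on days 3 and 7 than in their own intact spleens, with medians of 0.79 and 0.75 and with 11 and 9 genes at an unadjusted p under 0.05. On day 1 the median was -0.09. The stalk and membrane genes had 7 of 9 at this threshold on each of days 3 and 7, with medians of 0.91 and 0.80. In F1, 2 of 5 were on day 3 and 1 on day 7, with medians of 0.47 and 0.24.

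Atp5g3, 1 of 3 genes that encode the same mature c subunit, had the smallest p of the 95 genes on day 7. It was at 11.00, 11.59 and 11.42 on day 7 and 10.38, 9.82 and 9.74 in intact spleens 1 to 3, without overlap (1.36 ± 0.28, SE, adjusted p = 0.174, limma), a fold of 2.57. Against all 6 intact spleens it passed the test (1.54, adjusted p = 0.0298). That value includes part of the difference of Atp5g3 between intact spleens 4 to 6 and 1 to 3, which was -0.35. On day 3 Atp5g3 was at 10.88, 11.63 and 10.91 against 9.77, 9.33 and 9.79 (1.51 ± 0.28, adjusted p = 0.0866), again without overlap. Atp5g2, another of these genes, differed by 0.16 on day 3 and 0.62 on day 7, with overlap on day 3 only. Atp5g1 was at 9.10, 9.09 and 8.58 on day 3 against 8.24, 6.93 and 8.18 (1.14 ± 0.43, adjusted p = 0.426), while intact spleens 1 to 3, at 8.80, 10.09 and 9.10, overlapped with day 3.

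The F1 part held Atp5a1, the alpha subunit, at 16.37, 16.65 and 16.64 on day 7 against 15.57, 15.78 and 15.28, without overlap (1.01 ± 0.24, SE, adjusted p = 0.219, limma). On day 3 the same gene was at 16.62, 16.50 and 16.26 against 16.05, 15.99 and 15.46 (0.63 ± 0.24, adjusted p = 0.423). Its partner Atp5b, the catalytic beta subunit, differed by 0.48 ± 0.27 on day 7, where the lowest day 7 array was just above the highest intact one, and by 0.33 ± 0.27 on day 3 with overlap.

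In the peripheral stalk, Atp5o, the subunit that links the stalk to F1, was at 11.48, 11.82 and 11.73 on day 7 and 10.23, 10.82 and 10.40 in intact spleens 1 to 3 (1.196 ± 0.312, SE, adjusted p = 0.242, limma). On day 3 Atp5o was at 11.20, 11.48 and 11.25 against 10.62, 10.80 and 9.62 (0.97 ± 0.31, adjusted p = 0.341). The day 7 and day 3 arrays thus lay above all 6 intact spleens, with day 1 (9.88, 9.86 and 10.71) among them. Atp5mpl, a small membrane subunit, was at 10.87, 11.63 and 11.73 on day 3 against 10.07, 9.84 and 10.02 (1.43 ± 0.26, adjusted p = 0.0866). On day 7 its difference was 0.79 ± 0.26 (adjusted p = 0.33). Atp5k, subunit e, differed by 1.02 on day 7 and 0.76 on day 3, at levels of 4.89 to 6.69, not far above the array medians. Atp5pb and Atp5h, subunits b and d of the stalk, differed by 1.07 and 0.67 on day 3 and by 0.25 and 0.09 on day 7.

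The difference between the sets of intact spleens bears on these values, as intact spleens 4 to 6 had lower levels of several of the 95 genes. Of the 95 genes 32 were higher and 63 lower in intact spleens 4 to 6 than in 1 to 3, with a median of -0.20 against -0.02 over all features, of which 48.3% were higher. At an unadjusted p under 0.05, 2 were higher and 16 lower (5.64% and 5.94% of all features, and 8.06% and 10.1% of those at a level of at least 7), and arrays did not overlap for 5 above and 22 below (8.72% and 9.31%). After Ndufs8, the smallest p values were those of Atp5pb (-1.42 ± 0.35, SE, adjusted p = 0.0987, limma) and Cox7b (-1.06 ± 0.28, adjusted p = 0.121). Ndufb9 differed by -1.75, Atp5g1 by -1.55, Sdhd by -0.93, Sdha by -0.87 and Uqcrc2 by -0.84. Genes higher in intact spleens 4 to 6 included Ndufa2, an accessory subunit of complex I, by 0.77, and Cox5a, by 0.72. Without intact spleens 1 and 2, which held pancreatic transcripts, intact spleen 3 was the only array of its set. The part of these transcripts in the differences between the sets was not tested. Cell markers also differed between the sets: in intact spleens 4 to 6, 8 of 8 B cell genes (median 1.15) and 8 of 9 T cell genes (median 0.81) were higher, and 8 of 10 red pulp macrophage genes (median -0.75) and 8 of 9 proliferation genes (median -0.72) lower. Their part in the differences between the sets was not tested.

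Set against the other intact spleens, days 3 and 7 kept the sign of their medians but not their counts. Day 3 against intact spleens 1 to 3 had a median of 0.38, with 27 genes higher at an unadjusted p under 0.05 and 4 past the adjusted test. Day 7 against intact spleens 4 to 6 had a median of 0.62, with 47 such genes and 24 past the adjusted test. Against all 6 intact spleens 7 passed. Shares of all features were not computed for these settings, so their counts cannot be set against a background. The difference between the sets of intact spleens enters each of them. Single arrays also counted: without day 3 replicate 3, Ndufc2, Atp5g3 and Ndufs8 passed the test against intact spleens 4 to 6, and without intact spleen 3 the day 7 count at an unadjusted p under 0.05 was 20. For these fits, too, shares of all features were not computed.

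Days 7 and 1 can be compared directly, without intact spleens. Of the 95 genes 78 were higher on day 7, as were 51.2% of all features, with a median difference of 0.46 against 0.01 over all features. No gene passed the adjusted test (0 of 95, against 0.0585% of all features, limma), while 33 were higher and 1 lower at an unadjusted p under 0.05, where 5.58% and 7.12% of all features were, and 9.49% and 13.1% of those at a level of at least 7. Arrays did not overlap for 33 genes above and 1 below (8.05% and 9.68%). Cycs had the smallest p (1.38 ± 0.28, SE, adjusted p = 0.0629), and Ndufb2, an accessory subunit of complex I, the largest difference. Ndufb2 was at 7.92, 7.68 and 8.16 on day 7 and 6.57, 5.32 and 6.80 on day 1, without overlap (1.69 ± 0.35, adjusted p = 0.0647). Atp5o differed by 1.53 and Ndufs6 by 1.44 (adjusted p = 0.0647 and 0.0834). The lower gene was Cox7a2l, by -0.83 ± 0.37 (adjusted p = 0.361). Without day 1 replicate 3, 4 genes passed the test, among them Ndufb2, Atp5o and Cox5b. The share of all features was not computed for this setting, so that count cannot be set against a background. Between the day 7 and day 1 arrays 9 of 9 proliferation genes were higher on day 7 (median 1.70, 7 at an unadjusted p under 0.05). Also higher were 9 of 9 erythroid genes (median 1.36, 0 at that threshold) and 9 of 10 neutrophil genes (median 0.87, 3). Lower were 9 of 9 T cell genes (median -1.31, 7), 7 of 8 B cell genes (median -1.05, 4) and 8 of 10 red pulp macrophage genes (median -1.31, 6). Their part in the result was not tested.

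Whether the days differ was tested on the differences from their own intact spleens. The day 3 difference exceeded the day 1 difference for 89 of the 95 genes and 49.8% of all features, by a median of 0.65 over the genes, with 26 at an unadjusted p under 0.05 (2.77% of all features, and 4.63% of those at a level of at least 7) and 0 below (2.31% and 2.62%), and 0 past the adjusted test (limma, 0% of all features). Ndufc2 had the smallest p, with 1.72 ± 0.41 (SE, adjusted p = 0.94). Between days 3 and 7 the median was 0.15, with 62 genes and 50.5% of all features larger on day 3. At this threshold 7 genes were larger on day 3 (3.07% of all features, and 4.17% of those at a level of at least 7) and 0 on day 7 (2.77% and 1.17%), and 0 past the adjusted test (0% of all features). These 7 comprised Ndufc2 (1.43 ± 0.41, adjusted p = 0.772), Ndufs8, Sdhd, Ndufb9, Ndufa8, Ndufv2 and Atp5c1, of which all but Ndufc2 and Ndufa8 were also lower in intact spleens 4 to 6 than in 1 to 3 at an unadjusted p under 0.05. Ndufv2 and Atp5c1 were named here after their values were seen. Cycs had 0.47 less on day 3 than on day 7 (-0.47 ± 0.39, adjusted p = 0.918).

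Other mitochondrial genes, in lists not used to choose the 95 genes, gave the following counts at an unadjusted p under 0.05, with 0 past the adjusted test on any day. These lists, too, were written with earlier results of these data known. Over all features 5.76% were higher at this threshold on day 3 and 5.91% on day 7, and 12.9% and 9.39% of those at a level of at least 7. Of 48 genes of the large subunit of the mitochondrial ribosome, which translates the subunits encoded by mitochondrial DNA, 20 were higher and 0 lower on day 3 (median 0.48) and 12 and 0 on day 7 (median 0.36). Mrpl35 differed by 1.42 on day 3 (adjusted p = 0.112) and Mrpl27 by 1.11 on day 7 (adjusted p = 0.174). Of 16 genes of the TCA cycle and pyruvate dehydrogenase, which supply NADH and succinate, 8 were higher on day 3 (median 0.54) and 4 on day 7 (median 0.42). Pdhb, a subunit of pyruvate dehydrogenase, differed by 1.28 on day 3, and Idh3a, a subunit of isocitrate dehydrogenase, by 1.18 on day 7. Glycolysis had 4 of 16 genes higher and 1 lower on day 3 (median 0.43) and 8 and 0 on day 7 (median 0.75), with the phosphoglycerate mutase gene Pgam1 at 1.46 on day 7.

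Counts for the factors that build the complexes were near those over all features. Of 29 assembly factors of complexes II to V, 2 were higher and 1 lower on day 3 (median 0.21) and 1 and 0 on day 7 (median 0.15). Among 8 further assembly factors of complex I, 1 was higher on day 3 and 0 on day 7. Of 14 regulators of mitochondrial biogenesis, 2 were higher on day 3 and 1 on day 7. Myc, a growth regulator, differed by 0.75 and 1.19 on those days, Yy1 by 0.86 on day 3, and Ppargc1a, a coactivator known for driving mitochondrial biogenesis in muscle and fat, by -0.60 on day 7 at low signal. Of 9 carrier and channel genes 4 were higher on day 3 and 3 on day 7, with the ADP/ATP carrier Slc25a5 at 0.95 and 0.78.

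Cell type markers moved on the same arrays. On day 3 the mean level of 9 erythroid genes was 11.09, 8.04 and 13.79, and that of 9 proliferation genes 10.77, 9.65 and 13.23, each on both sides of the levels in intact spleens 4 to 6, while the mean of the 95 genes was 9.19, 9.40 and 9.34. All 9 erythroid genes were lower on day 3 (median -1.07), with 0 at an unadjusted p under 0.05, and 10 red pulp macrophage genes were all higher (median 0.60), with 1 at that threshold. All 9 T cell genes were lower on day 3 (median -0.50), with 1 at that threshold. On day 7 all 8 B cell and 9 T cell genes were lower, with medians of -1.33 and -1.08 and 4 in each at that threshold. Of the 9 proliferation genes 8 were higher and 1 lower on day 7 (median 0.53), with 0 at that threshold. All 10 neutrophil genes were higher on day 7 (median 2.17, 4 at that threshold), with mean levels of 13.88, 15.17 and 13.51 against 13.69, 11.58 and 11.99 in intact spleens 1 to 3. All 11 pancreatic acinar genes were lower on days 1 and 7 than in intact spleens 1 to 3, with medians of -6.55 and -5.79. On day 1 the 9 proliferation genes and the 9 erythroid genes were all lower, with medians of -1.19 and -1.52, and 8 of 10 red pulp macrophage genes were higher (median 1.01), with 4 at that threshold. The part of these cell types in the differences of the 95 genes was not tested. Without intact spleens 1 and 2, which carried the acinar transcripts, intact spleen 3 was the only control of day 7. A count from that fit rests on 1 control array, so the part of these transcripts in the day 7 counts was not tested. Muscle and fat markers had mean levels of 3.34 to 5.01 on every array.

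**Figure D4:**
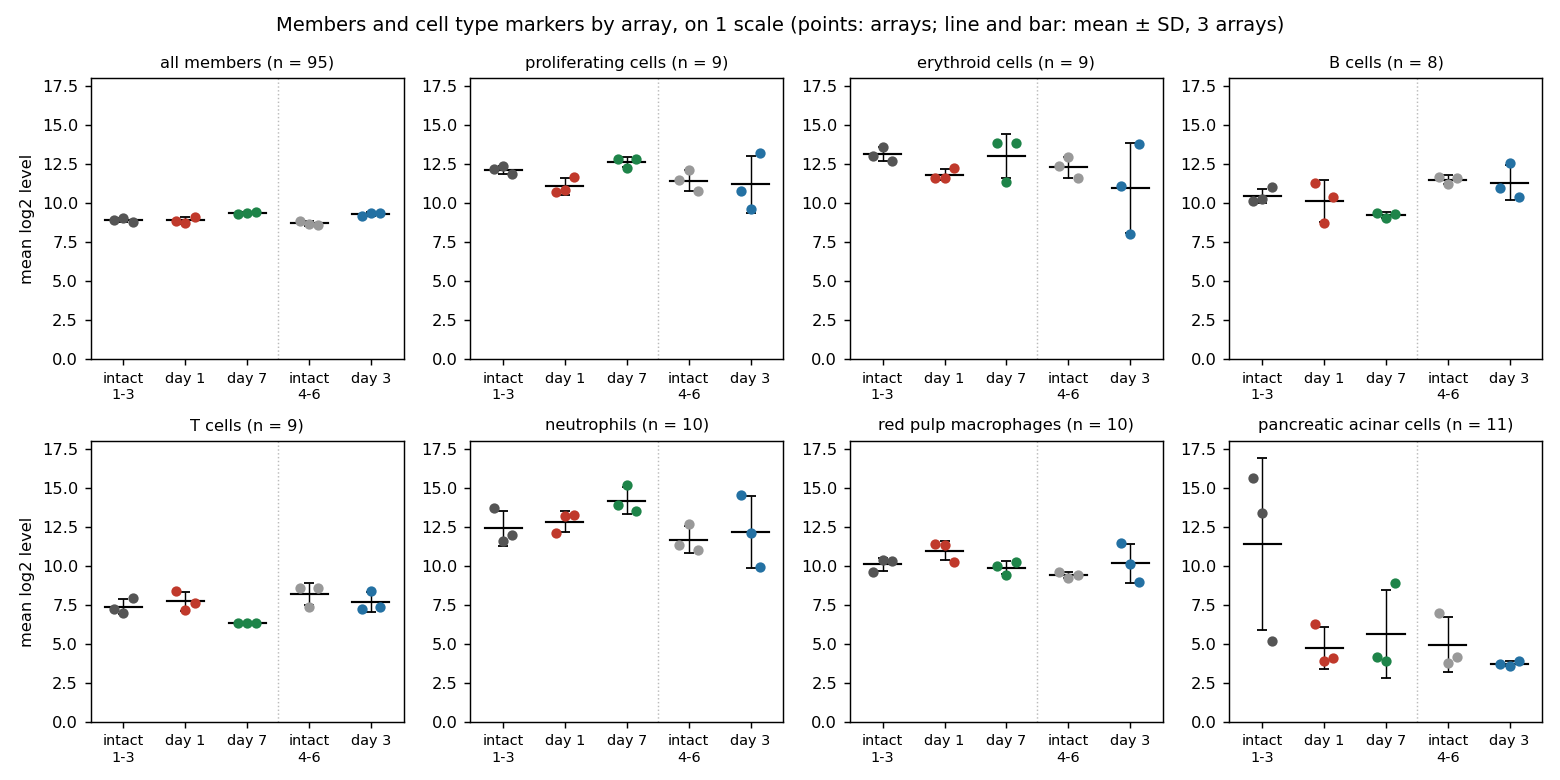
Mean log2 level of the 95 genes and of 7 marker lists on each of the 15 arrays, on a common axis, with the mean and SD of 3 arrays. Erythroid and proliferation markers spread widely over the day 3 arrays and acinar genes over intact spleens 1 to 3, while the mean of the 95 genes stayed between 8.59 and 9.41.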

How the data were processed

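RNA of 15 mouse spleens had been hybridised to Clariom S arrays. Values were deposited on a log2 scale, and the authors had obtained them by RMA (background correction, quantile normalization and probe summary) in the Transcriptome Analysis Console. The scale has an upper end of 19.93, reached by 45 features and by none of the 95 genes, and whether it was transformed further before deposit is not given in the sources used here and would alter how large each difference is. Precision is limited by the number of arrays.

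All 22206 features that remained of 28846 once the 6640 controls of the array had been removed entered the tests, with symbols from the platform's annotation. Differences were fitted with limma 3.58.1 (R 4.3.3, lmFit and eBayes) in 1 fit over 5 groups, with the intact spleens in sets 1 to 3 and 4 to 6 by their numbers in the labels, and adjusted p values are Benjamini-Hochberg values over all features. SE and p come from that fit, and no list was tested. The fit was tested on simulated data. The genes, lists and rules were chosen with earlier results of these data known. Genes were named by rule: those past the test, the 3 largest differences in each direction and the 2 smallest p values of each complex in a comparison, extreme levels and ranges, core subunits and tissue-limited isoforms. Of other lists up to 2 genes with the smallest p were named, and exceptions are stated.

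Alternatives were the other intact spleens, the replicate number as a block, fewer groups, a filter, another prior, median centring, a further quantile normalization, other thresholds and leaving out each array. The counts at an unadjusted p and the fit without intact spleens 1 and 2 were added after seeing the data. Same-numbered arrays did not deviate together (r from -0.208 to 0.222, over 0.1 for 4 of 18 pairs), so no pairing by number was seen in these values. Whether the numbers mark a shared batch was not tested. Promoter windows were taken from RefSeq with Python 3.11.15.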

Additional observations from a re-analysis of the deposited data

Results flagged for a closer look

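Ndufs1, the largest iron-sulfur subunit of complex I, had a log2 level of 8.39 in intact spleen 6, far below the other intact spleens, which lay between 9.45 and 9.96. It was the 1 gene with such a gap among 60 named genes checked over the 6 intact spleens. Chance gives such a gap in about 1 in 20 groups, so 1 among 60 is no more than chance would give.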

How the results depend on the processing

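Over 1057 alternatives for 79 differences of single genes, 1040 kept the sign of the difference. None that was called in the main fit or an alternative reversed, but the main fit called only Ndufs8, between the intact sets. Many of these genes were named for large differences or small p values, and some alternatives cannot change a difference. The kept signs therefore do not measure how robust the differences are. With all 6 intact spleens, 7 genes passed on day 7, whose median was 0.53, and 10 genes were at an unadjusted p under 0.05 on day 1. With the other set of intact spleens, 4, 4 and 24 genes passed on days 1, 3 and 7, the medians of days 3 and 7 were 0.38 and 0.62, and 19, 27 and 47 genes were at an unadjusted p under 0.05. A trended and robust prior left 1 such gene on day 1. A further quantile normalization gave medians of 0.44 and 0.38 on days 3 and 7. Under the criterion of a 2-fold change and an unadjusted p under 0.05, 22 genes were called on day 3 and 12 on day 7. It called 6 genes between the intact sets and 10 between days 7 and 1. In the differences of day 3 from days 1 and 7 it called 17 and 2. Shares of all features were not computed for the counts in this section, so these cannot be set against a background. Without intact spleens 1 and 2, 1 gene was at an unadjusted p under 0.05 on day 1, the day 7 median was 0.50, and between the intact sets 0 passed and 9 were lower, each from a fit with intact spleen 3 as the only array of its set, assumed to vary like the other groups. Causes of these shifts were not tested.

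Leaving out each array in turn, day 1 had 0 calls, medians from -0.19 to 0.08 and 1 to 5 genes at an unadjusted p under 0.05 (1 without day 1 replicate 1, 5 without its replicates 2 or 3 or intact spleen 3). Its median was above 0 without day 1 replicate 2 or intact spleen 2 (0.01), and also against all 6 intact spleens (0.06) or intact spleens 4 to 6 (0.11). Day 3 had 0 to 3 calls (1 without its replicate 1), medians from 0.48 to 0.71 and 31 to 46 such genes. Day 7 had 0 calls, medians from 0.39 to 0.52 and 20 to 32 such genes. Between the intact sets there was 1 call each time, with medians from -0.28 to -0.13 and 13 to 16 lower genes, and between days 7 and 1 there were 0 to 4 calls, medians from 0.32 to 0.57 and 23 to 40 higher genes. The differences between days had 0 calls each time.

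With the replicate number as a block, days 1 and 7 and day 7 against day 1 had 0 calls, medians of -0.03, 0.45 and 0.46, and 3, 28 and 30 genes at an unadjusted p under 0.05, and 3 of 12 arrays matched best with their own number. No paired analysis was possible for day 3, the intact sets or the differences between days because intact spleens 4 to 6 share no number with other groups. A mean over several features of a gene was not run because each gene has 1.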
